A study of Caenorhabditis elegans with 12 samples.

Results

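The abu, pqn and idpc genes of Caenorhabditis elegans were followed in whole animals of 4 strains. Members were taken by symbol alone, as every gene whose symbol starts with abu, pqn or idpc and whose mean level over the 12 libraries was at least 1 CPM, the read count scaled to the total of its library. This gave 67 genes, namely 11 abu, 49 pqn and 7 idpc genes, of 14505 genes measured. Of 77 such symbols in the name table, 71 were listed in the data at any level, and 4 of these (abu-2, pqn-10, pqn-90 and pqn-91) stayed under the limit. Just inside it stood pqn-57 with a mean of 1.07 CPM and abu-4 with 1.17 CPM, and just outside it pqn-10 with 0.956 CPM and pqn-91 with 0.873 CPM.

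The double strain WBM66 carries both CA-AAK-2 and CA-CRTC-1 S76A, S179A, WBM60 carries CA-AAK-2, WBM55 carries CA-CRTC-1 S76A, S179A, and N2 is the laboratory wild type with neither. Each is called by its transgenes here (the double strain for WBM66), with 3 biological replicates each and 1 strain per genotype. AAK-2 is a catalytic subunit of the energy sensor AMPK, and CRTC-1 is a coactivator of the transcription factor CREB that AMPK phosphorylates. CA stands for constitutively active, and S76A, S179A names serines of CRTC-1, sites of this phosphorylation, that were replaced by alanine. All animals were L4 larvae, grown from synchronised L1 larvae whose parents were kept at 20 °C. The labels do not name the promoter, the site of insertion or the cells that express either transgene.

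The pharynx is the pump with which the worm takes up food, and its lumen is lined by a cuticle of chitin and proteins that is shed and rebuilt at each moult. The abu genes (for "activated in blocked unfolded protein response") were first named for their induction by stress of the endoplasmic reticulum when the canonical response is blocked, and the pqn genes for the glutamine- and asparagine-rich, prion-like domains of their products. Many abu genes and some pqn genes were later placed in the pharynx and its cuticle, and the idpc genes form a family of intrinsically disordered proteins of that cuticle. In the worm, abu and pqn genes are also known to be held down by the neuronal receptor OCTR-1, and raised abu-11 levels are known to lengthen life. The pqn name is given by domain alone and covers many genes with no known link to the pharynx.

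The libraries held 30887631 to 48989013 reads in listed genes, so that 1 read stood for 0.0178 to 0.0285 CPM. The share of the top 10 genes was 4.60 to 5.38%. The targeted genes matched the labels in every library. The gene aak-2 had 2786 to 3270 CPM in the double strain, 2440 to 2640 CPM in CA-AAK-2, 60.14 to 69.8 CPM in CA-CRTC-1 and 57.2 to 67.9 CPM in N2. For crtc-1 the range was 349.9 to 379 CPM in the double strain, 17.7 to 23.2 CPM in CA-AAK-2, 177 to 207 CPM in CA-CRTC-1 and 18.3 to 23.4 CPM in N2, so that the double strain had more crtc-1 RNA than CA-CRTC-1 (0.94 ± 0.10 on the log2 scale, adjusted p = 1.7e-05). In a list of 28 body cuticle and moult genes the double libraries varied most among themselves. They summed to 7761 CPM in replicate 1, 5647 CPM in replicate 2 and 10520 CPM in replicate 3, against 8423 to 9312 CPM in CA-CRTC-1. In the sum over all 67 members they did not vary most. Its standard deviation was 185 CPM in the double strain, 195 CPM in CA-AAK-2, 220 CPM in CA-CRTC-1 and 81.5 CPM in N2. Levels were tested with limma on log2(CPM + 0.5), and a difference was called where it reached 1.5-fold with an adjusted p (Benjamini-Hochberg, over all genes tested) no higher than 0.01. A gene was tested where it averaged 5 CPM or more over the samples compared. Log2 differences are on that scale and are given with their standard error (SE). "Rose" and "fell" are used of called differences only.

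With CA-AAK-2 most abu genes and all idpc genes fell, while most pqn genes did not. Of 56 members tested against N2 (11 were too low), 23 fell and 3 rose, which is 41.1% and 5.36% of them. Of all 10368 genes tested in the same comparison 4.4% fell and 8.2% rose. By name, 8 of 10 tested abu genes fell, all 7 idpc genes fell, and 8 of 39 tested pqn genes fell. The median log2 difference was -1.63 for abu, -1.20 for idpc and 0.10 for pqn genes. It was 0.11 for all genes tested, and rescaling the libraries by the median of ratios moved this to -0.01 and the calls over all genes to 518 higher and 701 lower, from 850 and 456. With that rescaling the median was -1.75 for abu, -1.32 for idpc and -0.01 for pqn genes. In all 23 genes that fell, the 3 CA-AAK-2 libraries lay below the 3 N2 libraries, as they did in 27 of the 56 members tested and in 18.7% of all genes.

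In the double strain, 13 of these 23 genes rose again relative to CA-AAK-2. They were abu-1, abu-6, abu-7, abu-8, abu-10, abu-11, abu-15, pqn-2, pqn-36, pqn-54, pqn-72, pqn-74 and idpc-5, so that 7 of the 8 abu genes that fell came back, 5 of the 8 pqn genes and 1 of the 7 idpc genes. Of all 10234 genes tested in both comparisons, 1.39% fell and came back, and of the 417 among them that fell, 34.1% came back. Both comparisons share the CA-AAK-2 libraries, which makes the number of returning genes a count and not a test. Across all 57 members tested between the double strain and CA-AAK-2, 16 rose and 2 fell, beside 7.66% and 3.63% of 10607 genes. The 16 include pqn-31 and pqn-94, which averaged under 5 CPM in CA-AAK-2, entered the comparison only through the double strain and add no support. In 28 of the 57 all double libraries lay above all CA-AAK-2 libraries, as in 22.6% of all genes. Leaving out 1 library at a time gave 11 to 15 returning genes, and 11 to 13 of the 13 were among them each time. Summed over the 13, double replicate 3 was the lowest of its strain, with 805 CPM, against 1120 and 1022 CPM in replicates 1 and 2.

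**Figure D1:**
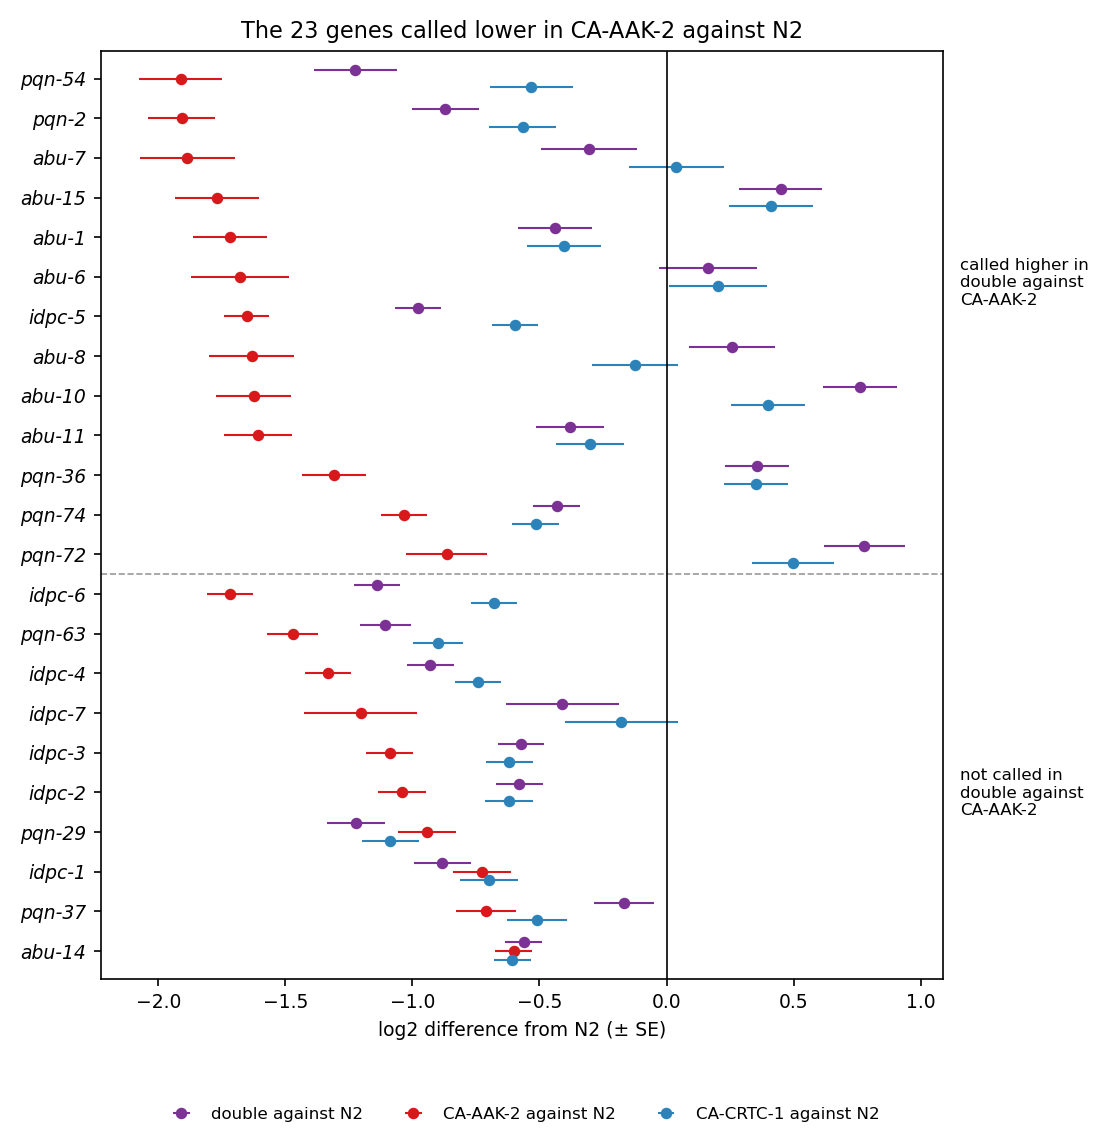
Log2 difference from N2 (± SE) of the 23 genes that fell with CA-AAK-2, in the double strain (purple), CA-AAK-2 (red) and CA-CRTC-1 (blue), with the 13 genes that rose in the double strain relative to CA-AAK-2 above the dashed line and the other 10 below it. The red points lie between -1.91 and -0.60, and the purple points of the upper genes spread from -1.22 to 0.78.

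Of the 13 returning genes, abu-10, abu-15 and abu-8 rose most in the double strain relative to CA-AAK-2. The gene abu-10 had 94.4, 88.1 and 61.7 CPM in the double strain, 12.9, 18.7 and 13.7 CPM in CA-AAK-2, 63.7, 58.6 and 64.1 CPM in CA-CRTC-1 and 45.9, 46.8 and 48.4 CPM in N2. All double libraries stood above every N2 library, and all CA-AAK-2 libraries below. In log2 terms abu-10 fell by 1.63 ± 0.15 in CA-AAK-2 relative to N2 (adjusted p = 3.6e-06) and rose by 2.39 ± 0.15 in the double strain relative to CA-AAK-2 (adjusted p = 2.1e-08), which is 5.23-fold. It ended 1.70-fold above N2 in the double strain (0.76 ± 0.15, adjusted p = 0.00045).

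The gene abu-15 had 65.8, 53.4 and 41.6 CPM in the double strain, 8.26, 13.5 and 11.7 CPM in CA-AAK-2, 53.0, 47.0 and 54.1 CPM in CA-CRTC-1 and 40.1, 36.1 and 39.3 CPM in N2. Its neighbour abu-6 had 36.4, 33.7 and 23.9 CPM in the double strain, 7.09, 12 and 6.55 CPM in CA-AAK-2, 30.7, 29.5 and 35.1 CPM in CA-CRTC-1 and 29.1, 30.2 and 23.6 CPM in N2. The next gene, abu-7, had 35.5, 35.8 and 23.5 CPM in the double strain, 8.61, 14.3 and 8.17 CPM in CA-AAK-2, 37.5, 36.2 and 45.2 CPM in CA-CRTC-1 and 38.3, 39.9 and 37.2 CPM in N2. In each of these 3 genes CA-AAK-2 was the only strain set apart from N2 by a call. They fell 3.41-, 3.20- and 3.69-fold in CA-AAK-2 relative to N2 and rose 4.65-, 3.59- and 2.99-fold in the double strain relative to CA-AAK-2. Against N2 the double strain differed by 0.45, 0.16 and -0.31 log2 units, with 95% intervals of 0.13 to 0.77 for abu-15, -0.22 to 0.54 for abu-6 and -0.67 to 0.06 for abu-7.

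The gene abu-8 had 160, 134 and 99.0 CPM in the double strain, 31.3, 45.3 and 28.4 CPM in CA-AAK-2, 97.3, 91.0 and 108 CPM in CA-CRTC-1 and 116, 108 and 99.0 CPM in N2. For abu-11, the gene tied to lifespan, the values were 151, 136 and 102 CPM in the double strain, 52.9, 65.9 and 46.0 CPM in CA-AAK-2, 135, 129 and 142 CPM in CA-CRTC-1 and 160, 178.98 and 162 CPM in N2. The CA-AAK-2 libraries stood apart from the other 9 in both genes. The log2 difference between CA-AAK-2 and N2 was -1.63 ± 0.17 for abu-8 (adjusted p = 8.9e-06) and -1.61 ± 0.13 for abu-11 (adjusted p = 2.2e-06), and that between the double strain and CA-AAK-2 was 1.89 ± 0.17 and 1.23 ± 0.13.

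The pair abu-1 and pqn-2 came back part of the way. The gene abu-1 had 52.0, 47.2 and 39.2 CPM in the double strain, 14.3, 23.4 and 19.1 CPM in CA-AAK-2, 50.5, 48.3 and 42.4 CPM in CA-CRTC-1 and 60.5, 66.8 and 59.5 CPM in N2. For pqn-2 the values were 23.9, 22.1 and 18.6 CPM in the double strain, 8.03, 11.6 and 11.3 CPM in CA-AAK-2, 28.7, 25.6 and 25.5 CPM in CA-CRTC-1 and 36, 40.1 and 42.9 CPM in N2. In both genes the N2 libraries were the highest and the CA-AAK-2 libraries the lowest, with no overlap. The falls were of 1.72 ± 0.15 and 1.91 ± 0.13 log2 units in CA-AAK-2 relative to N2, and the rises in the double strain relative to CA-AAK-2 of 1.28 ± 0.15 and 1.04 ± 0.13 (adjusted p = 9.2e-06 and 2.8e-05). Against N2 pqn-2 still fell in the double strain (-0.87 ± 0.13, adjusted p = 6.1e-05), and the difference of abu-1 missed both thresholds (-0.44 ± 0.15, adjusted p = 0.018). Calls of abu genes in this comparison depended on the scaling. Their counts were 2 rises and 0 falls of 10 tested, or 1 rise and 2 falls with median-ratio rescaling. Of all genes 15.6% rose and 6.87% fell, or 1071 and 1157 of 10600 with that rescaling.

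Among the other returning pqn genes, pqn-36 had 41.2, 40.0 and 33.9 CPM in the double strain, 9.54, 14.5 and 11.6 CPM in CA-AAK-2, 37.5, 35.0 and 42.2 CPM in CA-CRTC-1 and 30.4, 30.2 and 28.8 CPM in N2. The gene pqn-72 had 43.2, 60.0 and 40.7 CPM in the double strain, 12.7, 20.1 and 12.6 CPM in CA-AAK-2, 38.8, 39.0 and 38.7 CPM in CA-CRTC-1 and 27.9, 26.9 and 27.3 CPM in N2. In both, the libraries with CA-CRTC-1, alone or with CA-AAK-2, were above those of N2, and for pqn-72 the rise in the double strain relative to N2 was called (0.78 ± 0.16, adjusted p = 0.00078). The gene pqn-74 was more abundant, with 306, 273 and 242 CPM in the double strain, 189, 189 and 162 CPM in CA-AAK-2, 254, 238 and 281 CPM in CA-CRTC-1 and 351, 382 and 372 CPM in N2. Its return of 0.60 ± 0.09 was just past 1.5-fold, and it lost the call when CA-AAK-2 replicate 3 (0.53) or double replicate 1 (0.52) was left out, with median-ratio rescaling (0.55) and with edgeR (0.55).

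The return of pqn-54 was the least secure. It had 76.3, 62.4 and 43.0 CPM in the double strain, 33.8, 44.5 and 32.1 CPM in CA-AAK-2, 93.4, 90.1 and 104 CPM in CA-CRTC-1 and 131, 143 and 142 CPM in N2. It was the only returning gene in which double and CA-AAK-2 libraries overlapped, while all N2 libraries stayed above the others. Its fall in CA-AAK-2 relative to N2 (-1.91 ± 0.16) was level with that of pqn-2, its return was 0.69 ± 0.16 (adjusted p = 0.0044), and the adjusted p was 0.021, 0.023, 0.024 and 0.014 without CA-AAK-2 replicate 1, CA-AAK-2 replicate 3, double replicate 1 and double replicate 2. Against CA-CRTC-1 alone pqn-54 fell in the double strain (-0.69 ± 0.16, adjusted p = 0.0043). That call was lost without any 1 of the 3 CA-CRTC-1 libraries (adjusted p = 0.014, 0.010 and 0.019) and without double replicate 3, where the difference was -0.47.

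**Figure D2:**
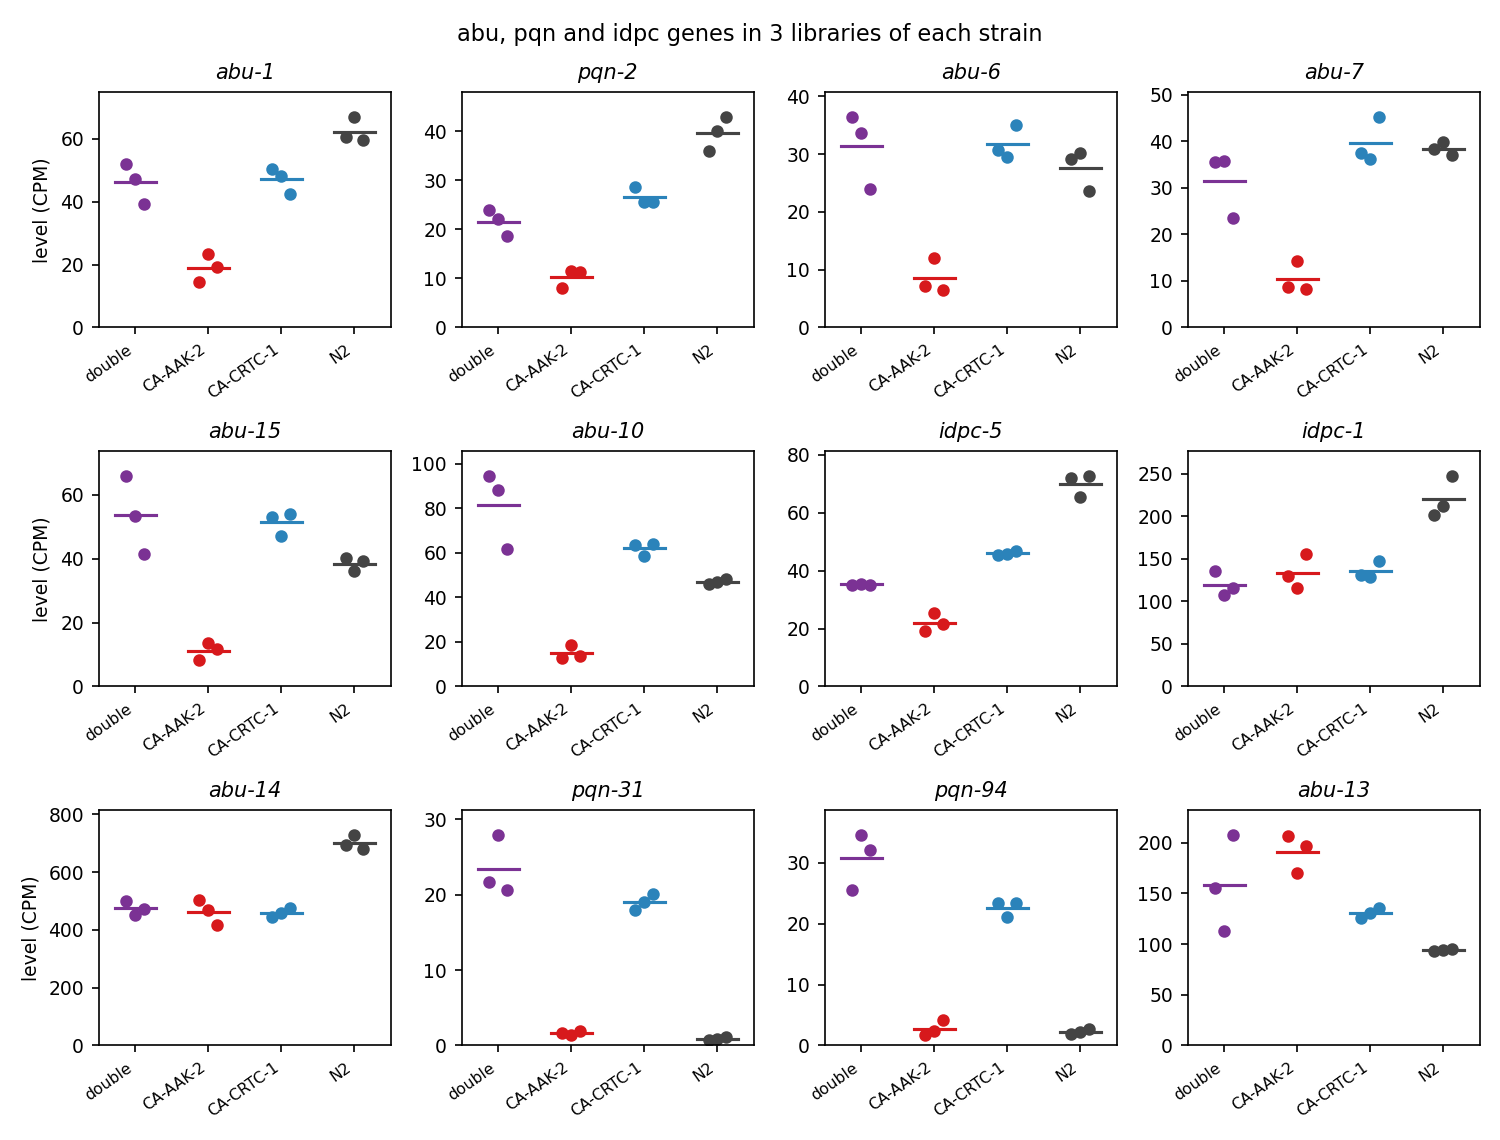
Level (CPM, linear axes from 0 with a scale of their own in each panel) of 12 genes in each of the 3 libraries of each strain (left to right the double strain, then CA-AAK-2, then CA-CRTC-1, then N2), with the bar at the mean. The CA-AAK-2 libraries are the lowest in abu-1, pqn-2, abu-6, abu-7, abu-15, abu-10 and idpc-5, N2 is the highest in idpc-1 and abu-14, and the 2 strains with CA-CRTC-1 stand above the others in pqn-31 and pqn-94.

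The 10 genes that fell with CA-AAK-2 and were not called in the double strain relative to CA-AAK-2 were abu-14, pqn-29, pqn-37, pqn-63 and the 6 idpc genes other than idpc-5. Of these 10, 8 fell in CA-CRTC-1 relative to N2 and 5 fell in the double strain relative to N2. Of the 13 returning genes 1 fell in CA-CRTC-1 relative to N2, idpc-5, and 3 fell in the double strain (pqn-2, pqn-54 and idpc-5). Over all genes 2.17% fell in CA-CRTC-1 and 6.87% in the double strain. With median-ratio rescaling, 9 of the 10 fell in CA-CRTC-1 and 8 in the double strain, and of the 13 returning genes 3 and 5. Of all genes, 357 of 10563 and 1157 of 10600 fell with that rescaling. All 3 comparisons use the same N2 libraries, by which the 23 genes were chosen as low, so these counts are a description. Summed over the 10 genes the level was 862 to 957 CPM in the double strain, 786 to 844 CPM in CA-AAK-2, 893 to 966 CPM in CA-CRTC-1 and 1435 to 1466 CPM in N2. Summed over the 13 returning genes it was 805 to 1120 CPM in the double strain, 385 to 498 CPM in CA-AAK-2, 914 to 1029 CPM in CA-CRTC-1 and 1138 to 1194 CPM in N2.

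The most abundant of the 10 was abu-14, with 498, 452 and 472 CPM in the double strain, 502, 469 and 416 CPM in CA-AAK-2, 446, 458 and 475 CPM in CA-CRTC-1 and 694, 727 and 679 CPM in N2. The 3 strains with a transgene overlapped with each other and stood below N2, and the double strain differed from CA-AAK-2 by 0.04 (95% interval -0.10 to 0.18). Its difference from N2 was -0.60 ± 0.07 in CA-AAK-2 and -0.61 ± 0.07 in CA-CRTC-1, and, at the limit of 1.5-fold, the first of these calls was lost without CA-AAK-2 replicate 3 (-0.53) and both without N2 replicate 2 (-0.57 and -0.58). The gene pqn-29 had 13.7, 14.9 and 16.4 CPM in the double strain, 15.6, 19.1 and 20.4 CPM in CA-AAK-2, 18.3, 16.6 and 14.8 CPM in CA-CRTC-1 and 38.5, 35.1 and 33.3 CPM in N2. It fell in all 3 strains relative to N2, by 1.22 ± 0.11 in the double strain, 0.94 ± 0.11 in CA-AAK-2 and 1.09 ± 0.11 in CA-CRTC-1. The gene pqn-37 had 12, 14.1 and 13 CPM in the double strain, 7.79, 8.81 and 9.79 CPM in CA-AAK-2, 8.81, 10.5 and 11.4 CPM in CA-CRTC-1 and 15.5, 13.3 and 15.3 CPM in N2. Its double libraries were all above those of CA-AAK-2, by 0.54 log2 units, which is 1.46-fold.

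In all 7 idpc genes the N2 mean was the highest of the 4 strains. The gene idpc-6 had 33.9, 36.7 and 30.0 CPM in the double strain, 20.5, 23.9 and 22.4 CPM in CA-AAK-2, 42.7, 46.2 and 50.0 CPM in CA-CRTC-1 and 73.8, 70.1 and 79.1 CPM in N2. For idpc-5 the values were 35.1, 35.6 and 35.0 CPM in the double strain, 19.2, 25.5 and 21.4 CPM in CA-AAK-2, 45.6, 45.8 and 46.9 CPM in CA-CRTC-1 and 71.9, 65.4 and 72.6 CPM in N2. None of the 4 strains overlapped with another in either gene, and the order from low to high was CA-AAK-2, then the double strain, then CA-CRTC-1 and then N2. The rise in the double strain relative to CA-AAK-2 was 0.67 ± 0.09 for idpc-5 and 0.58 ± 0.09 for idpc-6, on either side of the 1.5-fold limit. The call of idpc-5 was lost without CA-AAK-2 replicate 1 (0.58), its fall in CA-CRTC-1 was lost without N2 replicate 1 or N2 replicate 3 (-0.58 and -0.57), and idpc-6 was called when libraries were rescaled to equal totals (0.60).

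The gene idpc-4 had 64.4, 55.4 and 50.6 CPM in the double strain, 39.0, 47.9 and 41.5 CPM in CA-AAK-2, 64.4, 62.4 and 66.7 CPM in CA-CRTC-1 and 112, 105 and 107 CPM in N2. For idpc-3 the values were 70.4, 63.8 and 56.8 CPM in the double strain, 43.8, 44.9 and 43.9 CPM in CA-AAK-2, 63.6, 53.8 and 67.9 CPM in CA-CRTC-1 and 96.0, 89.8 and 98.1 CPM in N2. For idpc-2 they were 72.0, 67.2 and 58.3 CPM in the double strain, 49.2, 52.4 and 41.5 CPM in CA-AAK-2, 63.7, 59.9 and 68.0 CPM in CA-CRTC-1 and 97.1, 101 and 97.1 CPM in N2. In these 3 genes the double and CA-CRTC-1 libraries overlapped, and the double libraries were all above CA-AAK-2, by 0.40, 0.52 and 0.46 log2 units (adjusted p = 0.0034, 0.00053 and 0.0015), short of 1.5-fold. Without CA-CRTC-1 replicate 2 the falls of idpc-2 and idpc-3 in CA-CRTC-1 relative to N2 came to -0.57 and -0.52 and were no longer called.

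The neighbouring pqn-63 had 46.0, 42.7 and 41.7 CPM in the double strain, 33.5, 38.4 and 29.6 CPM in CA-AAK-2, 47.9, 47.6 and 55.5 CPM in CA-CRTC-1 and 94.2, 103 and 85.8 CPM in N2. It fell in all 3 strains relative to N2, by 1.11 ± 0.10, 1.47 ± 0.10 and 0.90 ± 0.10 log2 units in the strains with both transgenes, CA-AAK-2 and CA-CRTC-1. The least abundant idpc gene, idpc-7, had 10.9, 7.55 and 7.72 CPM in the double strain, 2.89, 6.92 and 5.27 CPM in CA-AAK-2, 10.1, 10.2 and 10.3 CPM in CA-CRTC-1 and 11.5, 10.3 and 13.3 CPM in N2. The difference between the double strain and CA-AAK-2 was not called (0.79, or 1.73-fold, 95% interval 0.36 to 1.23, adjusted p = 0.012). The last of the 7, idpc-1, had 135, 107 and 115 CPM in the double strain, 130, 115 and 155 CPM in CA-AAK-2, 130, 128 and 147 CPM in CA-CRTC-1 and 202, 211 and 247 CPM in N2. All 3 strains lay below N2 and overlapped with each other, and the double strain differed from CA-AAK-2 by -0.16 (95% interval -0.38 to 0.07).

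Whether CA-CRTC-1 had another effect on top of CA-AAK-2 than on its own was tested as an interaction, the difference between the double strain and CA-AAK-2 minus that between CA-CRTC-1 and N2. Of 59 members tested 22 were higher and 1 was lower, where 3.91% and 4.82% of 10576 genes were called. All 13 returning genes and 8 of the 10 others that fell were among the 22, all but idpc-1 and idpc-7. The largest values were those of abu-8 (2.01 ± 0.24, adjusted p = 5.6e-05), abu-10 (1.99 ± 0.21, 2.1e-05) and abu-15 (1.81 ± 0.23, 0.0001). For abu-14 and pqn-29 a positive value (0.65 ± 0.10 and 0.81 ± 0.16) stood beside no rise in the double strain relative to CA-AAK-2. In these 2 genes each strain with a transgene lay at a like distance below N2 (-0.56, -0.60 and -0.61 for abu-14 in the double, CA-AAK-2 and CA-CRTC-1 libraries). The value of abu-14 was 0.57 without CA-AAK-2 replicate 3, and that of pqn-29 was 0.75 (adjusted p = 0.011) without N2 replicate 1, and neither was then called. The interaction takes in the N2 and CA-AAK-2 libraries that also define the falls.

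A few pqn genes rose with CA-CRTC-1, and 2 of them, pqn-31 and pqn-94, by about as much in either background. Relative to N2, 5 of 59 tested members rose in CA-CRTC-1 and 10 fell, beside 6.62% and 2.17% of 10509 genes, and with median-ratio rescaling 4 rose and 14 fell. In the double strain 15 rose and 10 fell of 59, beside 15.6% and 6.87% of 10594 genes, and with median-ratio rescaling 9 rose and 15 fell. The gene pqn-31 had 21.7, 27.9 and 20.6 CPM in the double strain, 1.66, 1.44 and 1.98 CPM in CA-AAK-2, 18.0, 19.1 and 20.1 CPM in CA-CRTC-1 and 0.742, 0.838 and 1.14 CPM in N2. For pqn-94 the values were 25.5, 34.5 and 32.2 CPM in the double strain, 1.68, 2.32 and 4.24 CPM in CA-AAK-2, 23.5, 21.1 and 23.4 CPM in CA-CRTC-1 and 1.88, 2.25 and 2.62 CPM in N2. In both genes every library with CA-CRTC-1 was far above every library without it.

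The log2 rises of pqn-31 were of 3.81 ± 0.15 in CA-CRTC-1 relative to N2 and 3.44 ± 0.15 in the double strain relative to CA-AAK-2, and those of pqn-94 of 3.08 ± 0.22 and 3.33 ± 0.22. The interaction was not called in either, with 95% intervals of -0.77 to 0.04 for pqn-31 and -0.35 to 0.85 for pqn-94. The gene pqn-71 was too low in CA-AAK-2 and N2 for most comparisons, with 9.83, 10.5 and 7.22 CPM in the double strain, 0.653, 0.927 and 0.613 CPM in CA-AAK-2, 5.75, 4.52 and 5.93 CPM in CA-CRTC-1 and 0.428, 1.28 and 1.46 CPM in N2. The gene pqn-92 had 44.2, 43.6 and 51.3 CPM in the double strain, 14.5, 16 and 15.7 CPM in CA-AAK-2, 25.5, 23.8 and 23.7 CPM in CA-CRTC-1 and 14, 14.7 and 13.2 CPM in N2. Its double libraries were also above all CA-CRTC-1 libraries (0.91 ± 0.09, adjusted p = 3.0e-06), and its interaction was called (0.78 ± 0.12). Since pqn-25, pqn-31, pqn-71, pqn-82 and pqn-94 averaged under 5 CPM in N2, they entered a comparison with it only through the strain in which they were higher, and their calls there add nothing to the counts as support.

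The 3 genes that rose in CA-AAK-2 relative to N2 were abu-13, pqn-32 and pqn-82. The gene abu-13 had 155, 113 and 207 CPM in the double strain, 207, 170 and 197 CPM in CA-AAK-2, 126, 130 and 136 CPM in CA-CRTC-1 and 93.1, 93.7 and 94.7 CPM in N2. For pqn-32 the values were 307, 178 and 385 CPM in the double strain, 366, 277 and 330 CPM in CA-AAK-2, 211, 200 and 252 CPM in CA-CRTC-1 and 104, 118 and 117 CPM in N2. In both genes the 3 N2 libraries were the lowest, and the double libraries were spread most widely, with replicate 2 the lowest and replicate 3 the highest. In CA-AAK-2 relative to N2, abu-13 rose 2.02-fold and pqn-32 rose 2.84-fold (adjusted p = 0.00013 and 5.8e-05), and in the double strain abu-13 rose by 0.71 ± 0.15, or 0.49 and not called without double replicate 3. In CA-CRTC-1 pqn-32 rose by 0.96 ± 0.20, with an adjusted p of 0.018 without CA-CRTC-1 replicate 3 and 0.016 without N2 replicate 1. Its interaction of -1.18 ± 0.29 (adjusted p = 0.0095) was lost without any 1 of the N2 or CA-CRTC-1 libraries, without CA-AAK-2 replicate 1 or 3 and without double replicate 1, at adjusted p values of 0.014 to 0.028.

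The gene pqn-82 had 11.7, 9.53 and 8.79 CPM in the double strain, 6.81, 6.56 and 9.20 CPM in CA-AAK-2, 5.80, 5.51 and 7.37 CPM in CA-CRTC-1 and 3.68, 4.01 and 4.64 CPM in N2. It rose in the double strain relative to CA-CRTC-1 (0.65 ± 0.16, adjusted p = 0.005). The adjusted p was 0.024, 0.026 and 0.030 without CA-CRTC-1 replicate 1, CA-CRTC-1 replicate 2 and double replicate 1. Between these strains 2 of 59 members rose (pqn-82 and pqn-92) and 1 fell (pqn-54), beside 4.68% and 4.17% of 10727 genes, and with median-ratio rescaling 1 rose and 1 fell. The 2 genes that fell in the double strain relative to CA-AAK-2 were abu-12 and pqn-67. The gene abu-12 had 99.9, 77.7 and 132 CPM in the double strain, 185, 151 and 178 CPM in CA-AAK-2, 106, 110 and 115 CPM in CA-CRTC-1 and 124, 127 and 122 CPM in N2. Its difference between the double strain and CA-AAK-2 of -0.76 ± 0.14 came to -0.57, short of the limit, without double replicate 2. For pqn-67 the values were 6.67, 5.70 and 9.20 CPM in the double strain, 12.6, 11.6 and 17.1 CPM in CA-AAK-2, 8.74, 10.2 and 10.2 CPM in CA-CRTC-1 and 16, 12.6 and 16.4 CPM in N2. It fell 1.86-fold in the double strain relative to CA-AAK-2 and 2.04-fold relative to N2.

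Further pqn genes were called relative to N2 in a strain with CA-CRTC-1. The gene pqn-35 fell in the double strain (-0.74 ± 0.08) and in CA-CRTC-1 (-0.63 ± 0.08, or -0.58 and not called without N2 replicate 3), and stood at -0.50 ± 0.08 in CA-AAK-2. In the double strain pqn-41, whose product is known to act in the death of the linker cell of the male gonad, rose by 0.89 ± 0.15. The rises of pqn-62 (0.78 ± 0.09), pqn-48 (0.72 ± 0.17), pqn-96 (0.60 ± 0.08) and pqn-65 (0.59 ± 0.07) in the double strain were smaller. The gene pqn-25 rose by 0.60 ± 0.14 in CA-CRTC-1, and the call was lost in 5 of the 6 fits that left out 1 library of the strains compared (adjusted p = 0.016 to 0.033). In all, 39 of the 67 members were called in some comparison and 28 in none, 6 of them because no comparison reached 5 CPM.

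The 28 genes without a call included abundant ones. The gene pqn-59, whose product is a component of stress granules, had 549, 560 and 548 CPM in the double strain, 550, 463 and 581 CPM in CA-AAK-2, 471, 484 and 539 CPM in CA-CRTC-1 and 392, 431 and 431 CPM in N2. The gene pqn-89 had 61.5, 54.9 and 61.5 CPM in the double strain, 54.4, 58.9 and 66.29 CPM in CA-AAK-2, 49.2, 56.7 and 57.6 CPM in CA-CRTC-1 and 58.9, 58.3 and 61.0 CPM in N2. The strains overlapped in pqn-89, while in pqn-59 N2 was the lowest by less than 1.5-fold. At the other end abu-4 was too low to test, with 0.270, 0.390 and 0.105 CPM in the double strain, 0.257, 0.250 and 0.223 CPM in CA-AAK-2, 0.989, 1.14 and 0.567 CPM in CA-CRTC-1 and 3.48, 3.17 and 3.25 CPM in N2. All of its N2 libraries were above the others.

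Many of the genes that fell are neighbours. In the WBcel235 assembly 14 of the 23 are on chromosome V, against 10 of the other 44 members, and 11 have another member within 10 kb, against 0 of the other 44. There were 3 such groups, all of them on chromosome V and made up wholly of genes that fell. The genes abu-15 (chrV:5158602-5159907, plus strand), abu-6 (chrV:5160678-5161892, minus) and abu-7 (chrV:5163270-5164782, minus) lie within 6181 bp. The genes pqn-63, idpc-7, idpc-6, idpc-5, idpc-4 and idpc-3 lie on alternating strands from 9616031 to 9629214, a span of 13184 bp that holds 1 other coding gene. The genes abu-1 (chrV:10380340-10381826, minus) and pqn-2 (chrV:10382442-10384063, plus) lie side by side and point away from each other.

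**Figure D3:**
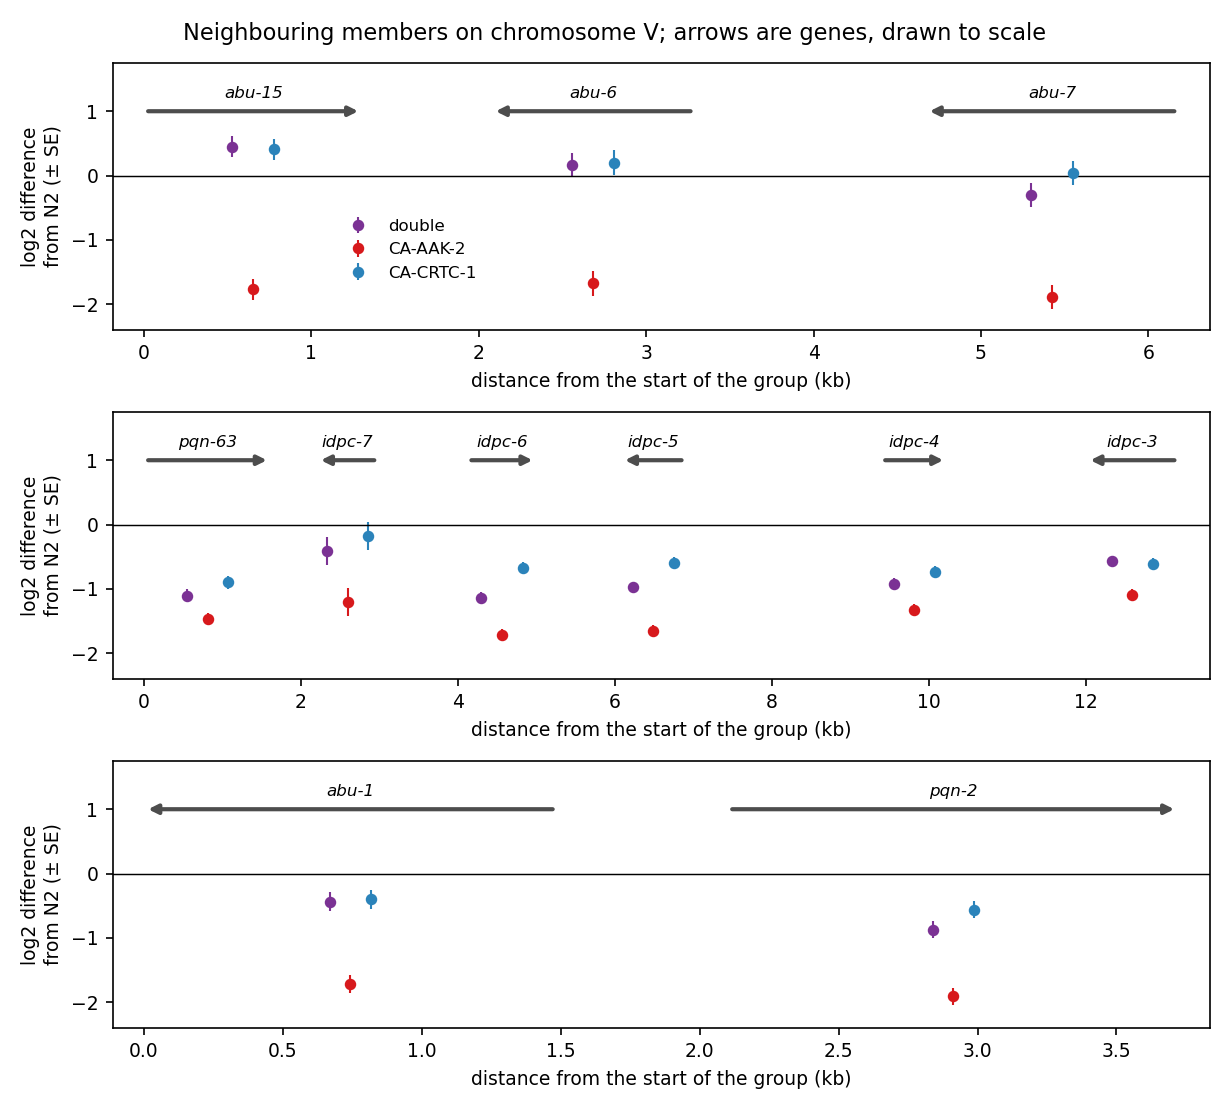
Log2 difference from N2 (± SE) of the 11 neighbouring members in the double strain (purple), CA-AAK-2 (red) and CA-CRTC-1 (blue), at the place of each gene within its group in kb, with arrows for gene extent and direction. In the abu-15, abu-6 and abu-7 group the purple and blue points lie between -0.31 and 0.45 and the red ones between -1.89 and -1.68, while in the idpc group every point lies below 0.

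Coordinates are those of the assembly named above, which may not be the one the reads were counted on. In the abu-15, abu-6 and abu-7 group the double strain rose by 1.58 to 2.22 relative to CA-AAK-2, whereas in the idpc group the values of the 6 genes were 0.36 to 0.79 and 1 was called. The 23 genes had a median coding length of 1164 bp in a median of 3 coding exons, against 1567.5 bp and 8 exons for the other 44 members. Adjacent genes can be copies that share reads: abu-1 and pqn-2 both have 1275 bp of coding length, and abu-6 and abu-15 both have 1164 bp. How reads that fit several copies were counted is not given in the sources used here, so the values of such genes may not be independent of each other. The exons of 4 of the 23 genes (abu-1, abu-6, idpc-1 and idpc-3) overlap another gene, and of 14 of the other 44. The kit did not keep the strand, so reads of idpc-1 and of the antisense exons of sbp-1, a regulator of fat synthesis, cannot be told apart.

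Levels of different genes were compared per length. In CPM per kb of exon, abu-14 was the highest of the genes that fell, with 338 in the double strain, 329 in CA-AAK-2, 327 in CA-CRTC-1 and 499 in N2, and idpc-7 had 13.2 in the double strain, 7.59 in CA-AAK-2, 15.4 in CA-CRTC-1 and 17.6 in N2. On the same scale abu-10 had 64.2 in the double strain, 11.9 in CA-AAK-2, 49.0 in CA-CRTC-1 and 37.1 in N2. Summed over all 67 members, the level in CPM was 5107 to 5473 in the double strain, 4422 to 4777 in CA-AAK-2, 4835 to 5241 in CA-CRTC-1 and 5344 to 5495 in N2. The sum for the 7 idpc genes was 354 to 422 CPM in the double strain, 304 to 331 CPM in CA-AAK-2, 407 to 456 CPM in CA-CRTC-1 and 653 to 714 CPM in N2. In the idpc sum the N2 libraries stood apart, with CA-AAK-2 the lowest.

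Some other genes of the pharynx were called as well. In whole animals fewer cells of a kind and less RNA per cell cannot be told apart. Of 18 tested genes of a list of other pharyngeal cuticle genes, 13 fell and 1 rose in CA-AAK-2 relative to N2 (median -0.95, beside 4.4% and 8.2% of all genes), and of 20 tested between the double strain and CA-AAK-2, 5 rose and 1 fell (median 0.32, against 0.02 for all genes, of which 7.66% rose and 3.63% fell). The transporter gene pgp-14 had 52.2, 56.8 and 43.7 CPM in the double strain, 6.32, 10.7 and 6.69 CPM in CA-AAK-2, 58.6, 68.2 and 63.0 CPM in CA-CRTC-1 and 37.8, 36.2 and 36.9 CPM in N2. Its CA-AAK-2 libraries were the lowest by far, and it rose by 2.64 ± 0.15 in the double strain relative to CA-AAK-2. The disordered protein genes idpb-1 (-1.10 ± 0.12), idpp-4 (-0.93 ± 0.09) and idpp-5 (-0.88 ± 0.07) fell in CA-AAK-2 and in CA-CRTC-1 relative to N2 and were not called between the double strain and CA-AAK-2. The small secreted protein genes nspb-12, fipr-2 and fipr-3 rose by 3.04 ± 0.25, 2.81 ± 0.17 and 3.21 ± 0.26 in the double strain relative to CA-AAK-2, a comparison they entered only through their level in the double strain. On the other side idpb-2, with means of 4.09 CPM in CA-AAK-2 and 8.99 CPM in N2, entered the comparison of these strains only through N2. Genes that enter in such a way add no support to the counts.

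Of 8 tested genes of the pharyngeal muscle list, 4 fell in CA-AAK-2 relative to N2 (myo-1, myo-5, tnt-4 and tnc-2, median -0.64), beside 4.4% of all genes. In the double strain relative to CA-AAK-2, 4 rose (myo-1, myo-2, tnt-4 and pha-4, median 0.52), or 2 with median-ratio rescaling, beside 7.66% of all genes. The myosin gene myo-1 had 151, 164 and 147 CPM in the double strain, 92.5, 88.6 and 83.2 CPM in CA-AAK-2, 282, 264 and 274 CPM in CA-CRTC-1 and 228, 220 and 195 CPM in N2. It fell in CA-AAK-2 relative to N2 (-1.28 ± 0.07) and rose in the double strain relative to CA-AAK-2 (0.80 ± 0.07), with no overlap of libraries. The myosin heavy chain gene myo-5 fell by 1.09 ± 0.10 in CA-AAK-2 relative to N2 and stood at 0.46 ± 0.10 in the double strain relative to CA-AAK-2. A further one, myo-2, stood at -0.39 ± 0.12 in CA-AAK-2 relative to N2, and the forkhead factor gene pha-4, which specifies the whole pharynx and is on both the muscle and the development list, at -0.09 ± 0.09, and rose by 0.59 ± 0.09 in the double strain relative to CA-AAK-2. Of 6 tested pharyngeal gland genes 1 fell in each of these 2 comparisons, the protease gene nas-12. Its means were 4.07 CPM in the double strain and 6.54 CPM in CA-AAK-2. It entered the comparison of these strains only through CA-AAK-2, and its fall there adds no support. Summed levels of the muscle list were 1978 to 2187 CPM in the double strain, 1941 to 2006 CPM in CA-AAK-2, 2483 to 2673 CPM in CA-CRTC-1 and 2417 to 2563 CPM in N2, most of which was lev-11, a tropomyosin gene of other muscles too, with means of 1409 CPM in the double strain, 1529 CPM in CA-AAK-2, 1724 CPM in CA-CRTC-1 and 1748 CPM in N2. Without lev-11 they were 635 to 731 CPM in the double strain, 415 to 497 CPM in CA-AAK-2, 825 to 869 CPM in CA-CRTC-1 and 693 to 794 CPM in N2, so that CA-AAK-2 was the lowest with no overlap. In the 9 body-wall muscle genes listed, none was called in either comparison, at medians of -0.24 in CA-AAK-2 relative to N2 and -0.06 in the double strain relative to CA-AAK-2. The part of pharyngeal tissue as a whole in the changes of the abu, pqn and idpc genes was not tested.

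**Figure D4:**
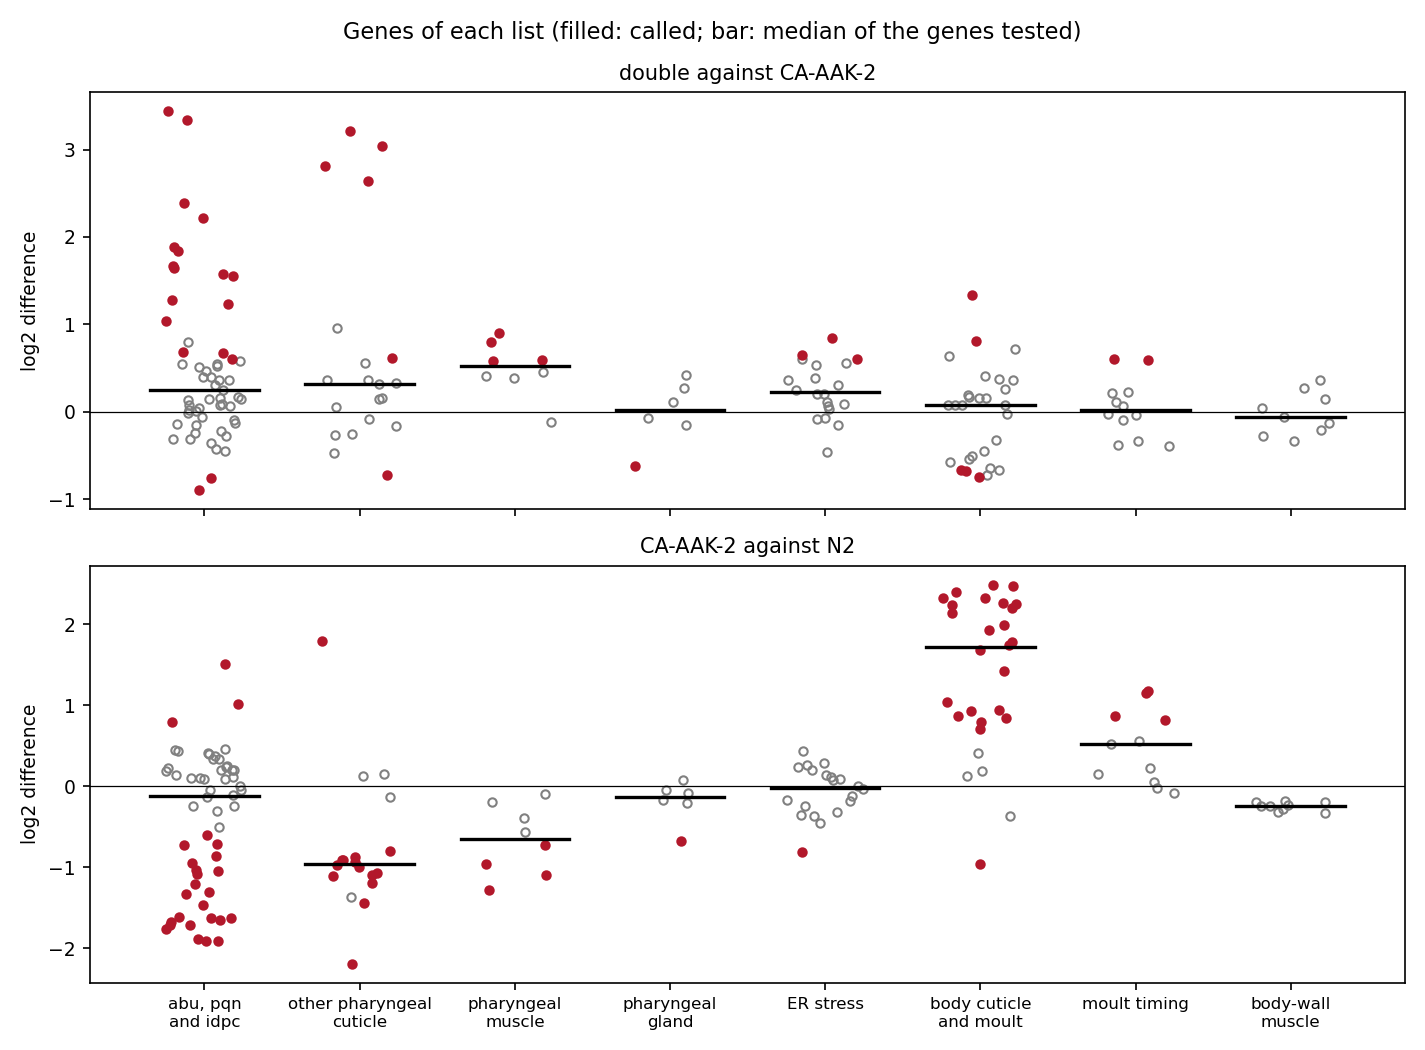
Log2 difference of each tested gene of 8 lists between the double strain and CA-AAK-2 (upper panel) and between CA-AAK-2 and N2 (lower panel), with called genes filled and a bar at the median of each list. Called genes below 0 in the lower panel and above 0 in the upper one number 23 and 16 for the abu, pqn and idpc genes. They number 13 and 5 for other pharyngeal cuticle, 4 and 4 for pharyngeal muscle and 1 and 3 for endoplasmic reticulum stress. For body cuticle and moult they number 1 and 2, and these genes are mostly above 0 in the lower panel, with a median of 1.72.

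In CA-AAK-2 relative to N2, most genes of the body cuticle and of the moult went the opposite way to most abu genes and all idpc genes. Of 28, 23 rose and 1 fell in CA-AAK-2, 21 rose and 1 fell in CA-CRTC-1, and 19 rose and 1 fell in the double strain, all relative to N2, while 2 rose and 3 fell in the double strain relative to CA-AAK-2. Over all genes 8.2%, 6.62% and 15.6% rose in these comparisons with N2. The rises of fbn-1 and dpy-3 add no support, since both averaged under 5 CPM in N2 and entered through the strain in which they were higher. Of the genes that time the moult, the period homologue lin-42 had 181, 110 and 227 CPM in the double strain, 184, 133 and 198 CPM in CA-AAK-2, 164, 144 and 184 CPM in CA-CRTC-1 and 66.7, 74.3 and 84.3 CPM in N2. Its N2 libraries were the lowest, and, as in abu-13 and pqn-32, double replicate 2 was the lowest and replicate 3 the highest of their strain. Of 11 tested genes of the moult timing list 4 rose in CA-AAK-2 relative to N2, beside 8.2% of all genes. Of 12 tested 2 rose in the double strain relative to CA-AAK-2, beside 7.66% of all genes, while the nuclear receptor gene nhr-23 was called in neither. Summed body cuticle and moult levels were 5647 to 10520 CPM in the double strain, 9646 to 10485 CPM in CA-AAK-2, 8423 to 9312 CPM in CA-CRTC-1 and 6371 to 6545 CPM in N2. The pharyngeal cuticle is renewed in step with the moult. Most body cuticle and moult genes rose in each of the 3 strains relative to N2. The median abu difference from N2 was -1.63 in CA-AAK-2, -0.04 in CA-CRTC-1 and -0.07 in the double strain. For idpc genes it was -1.20, -0.62 and -0.88 in the same order. The part of the moult in the differences of the members from N2 was not tested.

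Of 20 endoplasmic reticulum stress genes, 1 fell in CA-AAK-2 relative to N2, the choline kinase gene ckb-2 (-0.82 ± 0.19), and 3 rose in the double strain relative to CA-AAK-2. These counts are 5% and 15% of the list, beside 4.4% and 7.66% of all genes. The 3 that rose were hsp-4, the worm BiP chaperone (0.85 ± 0.13, adjusted p = 0.00016), crt-1, the calreticulin gene (0.65 ± 0.09), and ced-1, the engulfment receptor gene (0.60 ± 0.09). The gene hsp-4 had 1009, 618 and 695 CPM in the double strain, 451, 387 and 425 CPM in CA-AAK-2, 505, 511 and 544 CPM in CA-CRTC-1 and 533, 514 and 523 CPM in N2. Its double libraries were all above the other 9, and the CA-AAK-2 libraries were the lowest. Among lists of other tissues, in CA-AAK-2 relative to N2, none of 8 neuronal genes and none of 4 pharyngeal development genes was called, 1 rose and 2 fell of 10 intestinal genes, and 6 rose and none fell of 10 germline and oocyte genes. In the double strain relative to CA-AAK-2 the same lists gave none of 8, 1 rise of 4 (pha-4 again), 3 rises and 2 falls of 10, and 1 rise of 10. Of all genes 8.2% rose and 4.4% fell in the first of these comparisons, and 7.66% and 3.63% in the second.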

How the data were processed

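Poly-A RNA of 12 whole-animal libraries, 3 per strain, was measured by sequencing. Per the labels, 4 µg of total RNA with an RNA integrity number of 10 entered an unstranded Illumina kit, and reads were paired. Per the submitters' processing notes, CASAVA 1.8.2, cutadapt, TopHat2 2.0.8, HTSeq and edgeR were used, and how multiply mapped reads were counted is not given in the sources used here. The deposited values are CPM that the authors normalised for depth and composition with edgeR, per the series text, which names 2 genome releases. Places of genes were taken from the WBcel235 annotation. Their text gives 1 CPM as a lower limit for keeping a gene, but the mean was below it in 743 of the 14505 genes analysed here. In every library 100% of the CPM values were whole multiples, within 0.02 reads, of what 1 read is worth.

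Members, gene lists and tests were chosen with earlier results of these data known. All 12 libraries entered 1 limma fit (limma 3.58.1 in R 4.3.3) on log2(CPM + 0.5) with a trended prior. Genes had to average 1 CPM or more in the whole set and 5 CPM or more in the strains compared. P-values were adjusted by Benjamini-Hochberg over all genes tested, and calls needed 0.01 and 1.5-fold, thresholds that follow the series text. The labels call the replicates biological without naming separate cultures, so p-values measure the spread between these samples. The text names members called in a comparison (of the comparisons with N2 other than that of CA-AAK-2, the 8 largest each way), all idpc genes, abu-1 and pqn-2, and, from the lists, chosen or most strongly called genes. In addition, abu-4, pqn-59 and pqn-89 were chosen after their values were seen. Deviations of same-numbered CA-AAK-2 and double libraries correlated across genes at 0.252, 0.313 and 0.275. For same-numbered CA-CRTC-1 and double libraries the correlations were -0.119, 0.079 and -0.130. For CA-AAK-2 and double libraries of different numbers they were -0.259 to -0.023. Over all pairs of strains, libraries of different numbers reached 0.334 (CA-CRTC-1 replicate 2 and N2 replicate 1). Same-numbered ones reached 0.371 (CA-CRTC-1 replicate 3 and N2 replicate 3). What a replicate number shares is not stated in the labels. The reported fit therefore has no block, and a replicate block over all 4 strains is an alternative. Alternatives were other pseudocounts (0.1 and 2), filters, scalings, priors and sample sets, a replicate block, edgeR 4.0.16 on recovered reads, a looser threshold, and leaving out each library. The fits were tested on simulated data.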

Additional observations from a re-analysis of the deposited data

Results flagged for a closer look

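For 23 members the effect of CA-CRTC-1 in the presence of CA-AAK-2 (double strain minus CA-AAK-2) differed from its effect alone (CA-CRTC-1 minus N2), by the limma interaction test at an adjusted p no higher than 0.01 and at least 1.5-fold. Of all 10576 genes tested 3.91% were higher and 4.82% lower. The test takes in the CA-AAK-2 and N2 libraries, by which 21 of the 23 were called as falling. The log2 difference between the effects was 2.01 for abu-8, 1.99 for abu-10, 1.81 for abu-15, 1.68 for abu-1, 1.64 for abu-6, 1.54 for abu-7, 1.53 for abu-11 and 0.65 for abu-14. Among idpc genes it was 1.27 for idpc-5, 1.26 for idpc-6, 1.14 for idpc-4, 1.13 for idpc-3 and 1.08 for idpc-2. Among pqn genes it was 1.602 for pqn-2, 1.31 for pqn-36, 1.26 for pqn-63, 1.22 for pqn-54, 1.15 for pqn-72, 1.11 for pqn-74, 1.05 for pqn-37, 0.81 for pqn-29, 0.78 for pqn-92 and -1.18 for pqn-32. The calls of abu-14, pqn-29 and pqn-32 could each be lost by leaving out a single library, as given above. In the 28 body cuticle and moult genes the same interaction was lower in 21 and higher in 0, at a median of -1.78, and whether this bears on the members was not tested. Strains of 3 libraries are too few for a check of single libraries that stand apart.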

How the results depend on the processing

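No member's call changed direction under the settings tried, and the 23 falls in CA-AAK-2 relative to N2 stayed within 1.5 times that number in each. With an adjusted p of 0.05 and no fold limit, 13 members rose in CA-AAK-2, 14 rose and 16 fell in CA-CRTC-1, and 24 rose and 20 fell in the double strain, all relative to N2. Of all genes, 3493 of 10368 rose in CA-AAK-2, and 1999 rose and 800 fell of 10509 in CA-CRTC-1. In the double strain 4328 rose and 2029 fell of 10594. That setting gave 27 rises and 7 falls in the double strain relative to CA-AAK-2, 10 and 4 relative to CA-CRTC-1, and 21 returning genes. Over all genes 2045 rose and 1703 fell of 10607 in the first of these 2 comparisons, and 2589 and 1611 of 10727 in the second. With a filter of 1 CPM, or none, 8 members rose in CA-CRTC-1 relative to N2, and without a filter 2 fell in the double strain relative to CA-CRTC-1. Median-ratio rescaling gave 9 rises in the double strain relative to N2 and 1 relative to CA-CRTC-1. With only the strains compared in the fit, 1 member rose and 0 fell in the double strain relative to CA-CRTC-1, and with a constant prior 0 fell. Leaving out 1 library gave 3 to 5 rises in CA-CRTC-1 relative to N2 (3 without N2 replicate 1 and without CA-CRTC-1 replicate 3), 1 to 2 falls in the double strain relative to CA-AAK-2 (1 without double replicate 2), and, between the double and CA-CRTC-1 strains, 1 to 3 rises (1 without CA-CRTC-1 replicate 1 or 2 or double replicate 1) and 0 to 1 falls (0 without CA-CRTC-1 replicate 1, 2 or 3). The replicate block changed no count by over 1.5 times: 23 members fell and 3 rose in CA-AAK-2 relative to N2, 13 returned, and 24 were called in the interaction, abu-13 being added. It also called a fall of pqn-67 in CA-CRTC-1. With edgeR on recovered reads, 3 members rose and 24 fell in CA-AAK-2 relative to N2 (588 and 678 of all 10368 genes), and 12 of the 13 returning genes still returned. With median-ratio rescaling 11 of the 13 returned, and 12 did with a constant prior or with only the strains compared in the fit. The cause of these shifts was not tested. The filter of 5 CPM left abu-4 and 5 other members untested in every comparison of the reported fit.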
